A study of Mus musculus with 12 samples.

Results

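The sterol regulatory element binding protein (SREBP) genes of lipid synthesis were followed in RAW 264.7 cells, a mouse macrophage line of BALB/c origin bought from the ATCC. The set was a list of 36 gene symbols, and all 36 were found among the 24421 symbols of the deposited expression table. It held 18 enzymes of sterol synthesis (the sterol branch), 10 genes of fatty acid synthesis and desaturation (the fatty acid branch), 5 genes of the SREBP machinery and 3 others. The cells were either wild type (WT) or lacked Parp14 (Parp14 -/-, here KO), and the question of the study was how the genotype, lipopolysaccharide (LPS) and a Jak inhibitor change gene expression. WT cells were untreated, or were treated for 2 h with LPS, with the Jak inhibitor, or with LPS and the inhibitor together. KO cells were untreated or treated for 2 h with LPS. Each of these 6 groups had 2 mRNA-seq libraries, giving 12 in all. The sources used here do not name the inhibitor, its dose or a vehicle, nor say how many KO clones were used. No label names separate cultures, so every p-value measures the spread between these libraries, which may be technical.

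SREBPs are transcription factors made as precursors in the membrane of the endoplasmic reticulum. When sterols are low, the escort protein SCAP carries them to the Golgi, where they are cut and released to the nucleus. When sterols or oxysterols are high, the INSIG proteins hold SCAP back. SREBP-2, from Srebf2, acts mainly on sterol genes, and SREBP-1c, from Srebf1, acts mainly on fatty acid genes. LPS, a lipid of the outer membrane of gram-negative bacteria, activates macrophages through TLR4 and induces type I interferon, whose receptor signals through Janus kinases. PARP14 is an ADP-ribosyltransferase induced by interferon.

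Parp14 was measured first as a check of the labels. It was at 76.4 and 99.7 counts per 1000000 gene reads (CPM) in untreated WT libraries and at 10.0 and 11.97 CPM in untreated KO libraries. After LPS it was at 315 and 419 CPM in WT and at 35.0 and 40.5 CPM in KO libraries. The KO libraries were below every WT library, and Parp14 reads were still counted in them. The sources used here do not say which stretch of the gene was deleted. With LPS and the inhibitor together Parp14 was at 110 and 138 CPM, below both LPS libraries (log2 change -1.56, SE 0.20, adjusted p = 0.00403, limma). Libraries held 35.9 to 45.7 M gene reads, of 57.1 to 74.2 M counted alignments (M, in units of 1000000). Of the 10 macrophage markers 9 reached 1 CPM in some library, with Mertk near 0, and the list summed to 10900 to 14790 CPM. Marker lists of T cells, B cells, fibroblasts, epithelium, endothelium, and liver or fat each summed to under 1 CPM in every library.

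All 36 members passed the filter for testing (at least 1 CPM in at least 2 libraries). Levels of different genes were compared as CPM per kilobase of annotated exon, in untreated WT cells. The desaturase Scd2 stood highest at 201 CPM per kb. It was followed by the desaturase Fads1 at 90.5, farnesyl diphosphate synthase Fdps at 78.0, ATP-citrate lyase Acly at 73.8, fatty acid synthase Fasn at 71.9 and the desaturase Fads2 at 70.9 CPM per kb. The last 4 of these differ by little against an exon length that depends on which transcripts are in use. Srebf2 was at 42.8 and Srebf1 at 30.4 CPM per kb, Insig1 at 31.5 and Insig2 at 5.92 CPM per kb. The lowest members were the acetate-using enzyme Acss2 at 1.41 and the sterol reductase Tm7sf2 at 1.00 CPM per kb. Fads1 and Fads2 are neighbours on chromosome 19 (10182888-10196877 and 10062765-10101746, GRCm38), as are Scd1 and Scd2 (44394455-44407879 and 44293674-44306864). Scd1 and Scd2 are close paralogs, so the split of reads between them is uncertain. Exons of 13 members overlap an annotated exon of another gene. These include Fdft1, which shares 774 exonic bases with the cathepsin gene Ctsb on the other strand, and Tm7sf2, which shares 532 exonic bases with Vps51 on the same strand. Fdps shares 1124 of its 4208 exonic bases with Gm43738 on the same strand. The sources used here do not say whether reads were counted by strand or how reads in shared stretches were assigned. Values of those members may thus include reads of the partner or lack reads of their own.

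**Figure D1:**
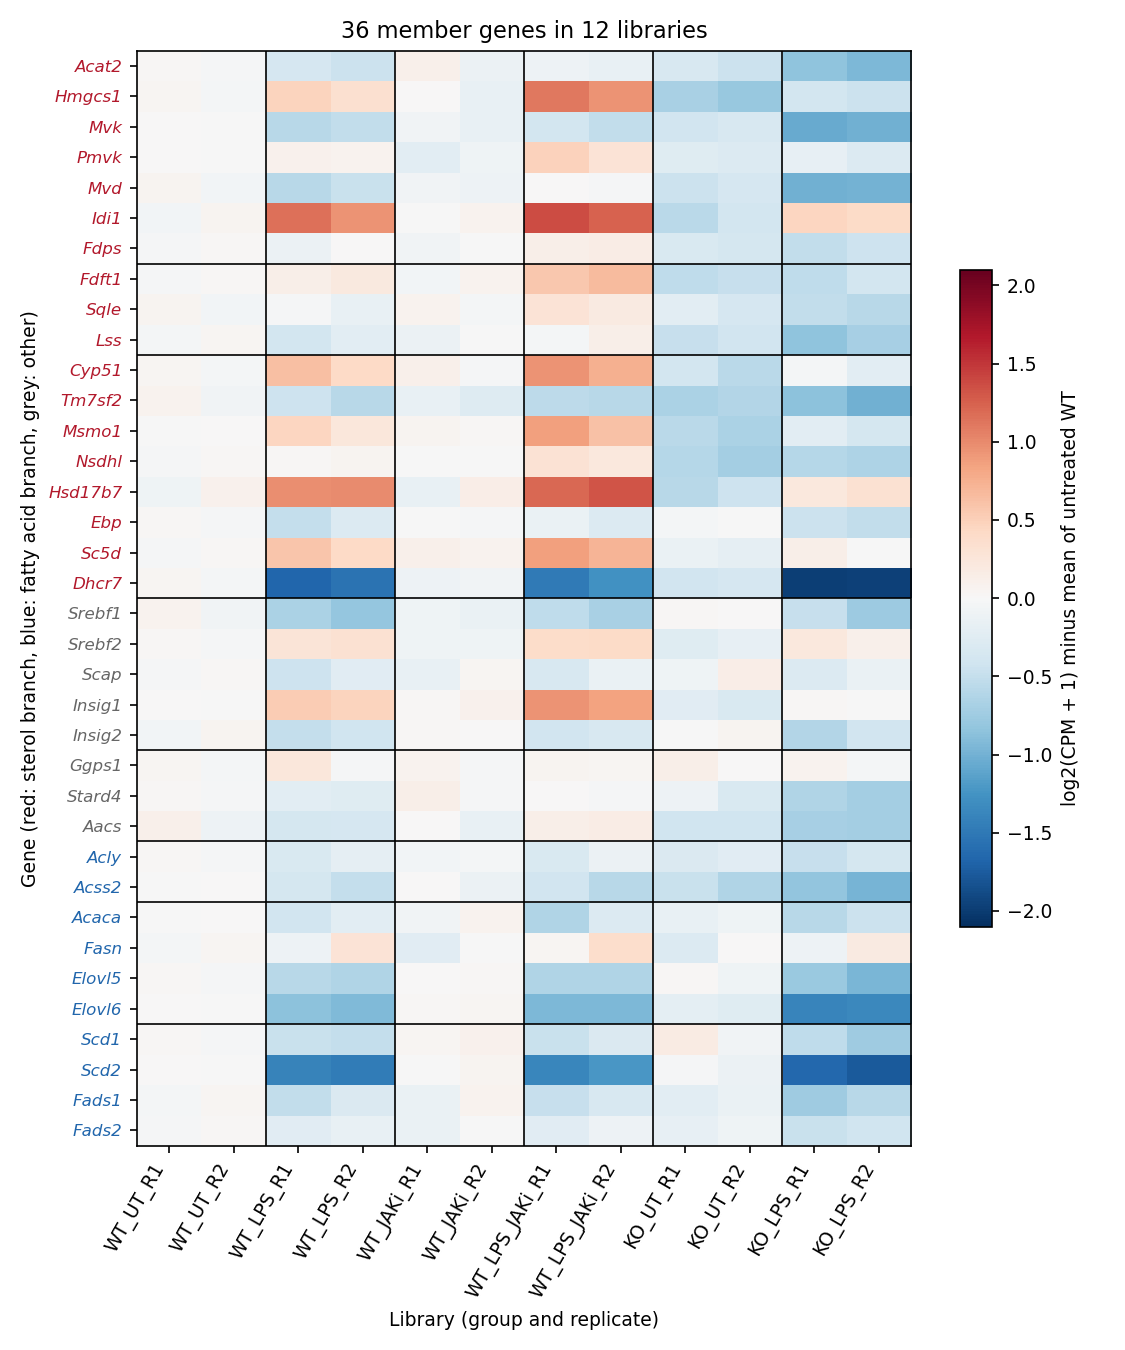
Heat map of the 36 genes (rows, grouped by role) in the 12 libraries (columns, 2 per group). Colour is log2(CPM + 1) minus the mean of the untreated WT libraries, with red above and blue below it. UT is untreated and JAKi is Jak inhibitor. The 4 KO columns are blue over most sterol rows, and Dhcr7, Elovl6 and Scd2 are blue in all 6 columns treated with LPS.

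Promoter sequences (250 bases before to 50 after an annotated start, RefSeq, GRCm38.p6) were found for 29 of the 36 members, in 37 windows. No entry was matched for Stard4, Sqle, Fdps, Scd1, Scd2, Fads1 and Fdft1. Promoters of 6 members are printed here because the results turn on them: Hmgcs1, Mvd, Insig1 and Aacs were called higher with the inhibitor in LPS-treated cells, Idi1 had the largest rise with LPS, and Elovl6 is a fatty acid gene that was lower after LPS and in KO cells. Capitals mark matches, on either strand, to the SRE core CACNCCAC (the letters of the sterol regulatory element), the CCAAT box CCAAT, which reads ATTGG on the other strand, and the E-box CACGTG. The GC box GGGCGG was searched on both strands too and is not in capitals. Matches of different motifs were counted separately and may overlap.
Hmgcs1: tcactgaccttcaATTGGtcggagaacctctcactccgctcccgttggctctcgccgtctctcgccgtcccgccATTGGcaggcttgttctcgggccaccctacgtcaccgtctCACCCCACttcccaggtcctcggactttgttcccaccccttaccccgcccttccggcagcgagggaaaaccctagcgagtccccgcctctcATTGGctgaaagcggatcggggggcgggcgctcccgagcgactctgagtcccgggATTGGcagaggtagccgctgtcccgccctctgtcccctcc
Mvd: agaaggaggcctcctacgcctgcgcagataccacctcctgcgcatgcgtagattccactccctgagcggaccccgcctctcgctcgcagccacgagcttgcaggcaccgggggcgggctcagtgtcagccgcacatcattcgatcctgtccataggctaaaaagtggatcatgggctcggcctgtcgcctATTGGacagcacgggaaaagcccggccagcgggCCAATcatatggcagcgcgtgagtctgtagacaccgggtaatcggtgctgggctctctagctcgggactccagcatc
Insig1: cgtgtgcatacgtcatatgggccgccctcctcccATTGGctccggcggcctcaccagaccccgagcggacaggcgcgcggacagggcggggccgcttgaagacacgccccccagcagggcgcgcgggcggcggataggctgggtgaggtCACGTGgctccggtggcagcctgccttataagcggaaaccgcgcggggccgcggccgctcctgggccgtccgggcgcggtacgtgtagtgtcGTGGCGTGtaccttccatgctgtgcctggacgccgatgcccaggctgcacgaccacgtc
Aacs: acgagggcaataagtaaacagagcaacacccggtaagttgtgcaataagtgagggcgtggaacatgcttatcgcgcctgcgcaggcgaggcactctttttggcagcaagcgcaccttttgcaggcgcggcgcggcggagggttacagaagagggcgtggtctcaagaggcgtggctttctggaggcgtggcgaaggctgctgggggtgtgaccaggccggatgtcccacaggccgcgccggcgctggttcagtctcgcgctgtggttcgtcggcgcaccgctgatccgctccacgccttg
Idi1: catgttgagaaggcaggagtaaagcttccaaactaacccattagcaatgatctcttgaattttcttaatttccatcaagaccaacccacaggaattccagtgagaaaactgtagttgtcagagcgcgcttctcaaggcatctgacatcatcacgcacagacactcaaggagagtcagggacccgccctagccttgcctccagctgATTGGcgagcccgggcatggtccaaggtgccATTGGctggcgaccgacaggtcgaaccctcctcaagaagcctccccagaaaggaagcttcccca
Elovl6: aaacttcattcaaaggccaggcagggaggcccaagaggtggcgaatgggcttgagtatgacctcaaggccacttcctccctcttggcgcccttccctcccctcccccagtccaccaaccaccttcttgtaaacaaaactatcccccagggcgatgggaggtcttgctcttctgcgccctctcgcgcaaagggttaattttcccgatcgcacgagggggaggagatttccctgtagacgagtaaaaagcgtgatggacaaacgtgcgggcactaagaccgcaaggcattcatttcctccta
The windows lie at chr13:119690101-119690400 (plus strand) for Hmgcs1, chr8:122443373-122443672 (minus) for Mvd and chr5:28071162-28071461 (plus) for Insig1. Those of Aacs, Idi1 and Elovl6 lie at chr5:125475623-125475922, chr13:8885356-8885655 and chr3:129532136-129532435, all on the plus strand. The Hmgcs1 window holds 1 SRE core, 4 CCAAT boxes and 3 GC boxes. The Mvd and Idi1 windows each hold 2 CCAAT boxes and 1 GC box, and no SRE core in these letters. The Insig1 window holds 1 SRE core, 1 CCAAT box, 3 GC boxes and 1 E-box. None of the 4 motifs is in the Aacs or the Elovl6 window. Over the members with a window, a CCAAT box was found for 14 of 15 sterol genes and 4 of 7 fatty acid genes, and a GC box for 14 of 15 and 3 of 7. Counted by window, 64.9% of the 37 member windows and 37.4% of all 32851 promoters in the table hold a CCAAT box, and 70.3% and 35.7% hold a GC box. An E-box was in 18.9% of member windows and 7.15% of all promoters. The SRE core was in 3 members (Acat2, Hmgcs1 and Insig1), or 8.11% of their windows against 6.24% of all promoters. These are letter matches and were not tested.

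After 2 h of LPS the sterol branch of WT cells split, with the isomerase Idi1 and the sterol reductase Hsd17b7 up to 2.06-fold higher and the last reductase, Dhcr7, at 0.327 of its untreated level. Of 18 sterol enzymes 6 rose and 7 fell, and of 10 fatty acid genes 0 rose and 9 fell. Over all 10899 genes tested 13.7% rose and 53.6% fell at an adjusted p under 0.05 (limma, differences of log2(CPM + 1)). The median change was -0.00 for the sterol branch, -0.42 for the fatty acid branch and -0.30 for all genes tested, so the fatty acid share that fell has to be read against a general downward shift. When libraries were rescaled by the median of ratios, the median of all genes moved to -0.04, and 26.4% of genes rose and 32.5% fell. On that scale 11 sterol enzymes rose and 4 fell (Mvk, Mvd, Tm7sf2 and Dhcr7), the sterol median was 0.28, and 3 fatty acid genes fell (Elovl5, Elovl6 and Scd2) with 0 higher. In bulk RNA, fewer cells with a transcript and less of it per cell cannot be told apart.

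Idi1, which isomerizes isopentenyl diphosphate, was at 124 and 136 CPM in untreated WT libraries and at 291 and 250 CPM after LPS (log2 change 1.05, SE 0.092, adjusted p = 6.14e-06). Hsd17b7, a reductase of sterol demethylation, was at 47.1 and 53.9 CPM and then at 100.1 and 100.9 CPM (log2 change 0.98, SE 0.11, adjusted p = 2.24e-05). Both LPS libraries were above both untreated libraries for each gene. Where genes were picked by their calls, here and below, groups that do not overlap add no support. No share of all genes without overlap was taken. Cyp51, the lanosterol demethylase, went from 158 and 149 to 238 and 205 CPM, and the sterol desaturase Sc5d from 38.5 and 39.9 to 59.5 and 52.8 CPM. Hmgcs1, which makes HMG-CoA, and the sterol methyl oxidase Msmo1 were the other sterol enzymes that rose, by log2 changes of 0.40 and 0.35. For Cyp51 and Sc5d the groups did not overlap, and the change was under 1.5-fold.

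The falls in the sterol branch were led by Dhcr7, which reduces dehydrocholesterol to cholesterol. It was at 73.9 and 70.2 CPM in untreated and at 21.97 and 23.8 CPM in LPS-treated WT libraries (log2 change -1.61, SE 0.078, adjusted p = 1.39e-07). Its LPS-treated libraries lay far below the untreated ones. Rescaled by the median of ratios its log2 change was -1.33, as large as that of Idi1 in the other direction (1.33). Mevalonate kinase Mvk went from 27.4 and 27.2 to 17.9 and 18.8 CPM, and mevalonate diphosphate decarboxylase Mvd from 62.1 and 57.5 to 39.6 and 42.9 CPM. Tm7sf2 was low throughout, at 4.67 and 4.15 CPM before and 2.98 and 2.61 CPM after LPS. Both LPS libraries were below both untreated libraries for Mvk, Mvd and Tm7sf2. Along the pathway, 2 of 7 mevalonate enzymes rose and 3 fell, 0 of 3 enzymes from squalene to lanosterol rose and 1 fell, and 4 of 8 enzymes after lanosterol rose and 3 fell, where 13.7% of all genes rose and 53.6% fell. Rescaled, 4 mevalonate enzymes rose and 2 fell, 2 enzymes from squalene to lanosterol (Fdft1 and Sqle) rose and 0 fell, and 5 enzymes after lanosterol rose and 2 fell, where 26.4% of all genes rose and 32.5% fell. Lanosterol synthase Lss was called lower at -0.30, the level of the all-gene shift, and its estimate was -0.02 after rescaling. With the replicate number as a block, where 18.0% of all genes were higher and 62.8% lower, squalene synthase Fdft1 was also called higher (adjusted p = 0.00485) and squalene epoxidase Sqle lower (adjusted p = 0.0472), although Sqle was called higher after rescaling (log2 change 0.20, adjusted p = 0.037).

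In the fatty acid branch the desaturase Scd2 went from 1104 and 1097 CPM to 416 and 397 CPM in WT cells (log2 change -1.44, SE 0.074, adjusted p = 1.91e-07). It inserts a double bond into saturated acyl chains. The elongase Elovl6, which extends saturated acyl chains, went from 63.4 and 62.6 to 34.3 and 32.8 CPM (log2 change -0.89, SE 0.056, adjusted p = 7.22e-07). Elovl5, which extends polyunsaturated chains, went from 121 and 118 to 79.1 and 76.6 CPM, and Scd1 from 90.8 and 88.2 to 64.3 and 62.8 CPM. In each of these genes both LPS libraries lay below both untreated ones. The other falls, in Acly, Acss2, Acaca, Fads1 and Fads2, had log2 changes of -0.25, -0.44, -0.31, -0.41 and -0.20, close to the shift of all genes. None of these passed the test after rescaling, and neither did Scd1 (log2 change -0.20, adjusted p = 0.0836, limma). Acly and Fads2 then had estimates above 0 (0.04 and 0.09). With rescaling and the replicate block together Fads2 was called higher (adjusted p = 0.0484), so the direction of Fads2 depends on the scaling. Fasn, the fatty acid synthase, was at 768 and 806 CPM untreated and at 734 and 964 CPM after LPS. Its replicates were spread more widely than those of any other member, and its groups overlapped.

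The genes of the SREBP machinery moved in opposite directions in WT cells. Srebf1 fell from 180 and 163 to 107 and 96.9 CPM (log2 change -0.74, SE 0.097, adjusted p = 8.73e-05), and Srebf2 rose from 311 and 303 to 371 and 386 CPM (log2 change 0.30, SE 0.058, adjusted p = 0.00125). Insig1, an SREBP target that retains SCAP, rose from 98.4 and 96.5 to 142 and 135 CPM (log2 change 0.50, SE 0.061, adjusted p = 5.3e-05). Its relative Insig2 fell from 19.8 and 21.3 to 14.3 and 15.2 CPM (log2 change -0.45, SE 0.085, adjusted p = 0.000981). For these 4 genes the groups did not overlap. The direction held after rescaling for all 4, and Insig2 then missed the test (log2 change -0.18, adjusted p = 0.112). Scap had a log2 change of -0.34 before rescaling and of -0.05 after it, when it missed the test (adjusted p = 0.727, limma). Of the 3 other members the sterol carrier Stard4 and acetoacetyl-CoA synthetase Aacs fell by 0.24 and 0.36 on the log2 scale. After rescaling Stard4 was at 0.04 and Aacs at -0.08, and neither passed. Geranylgeranyl diphosphate synthase Ggps1 did not pass (0.10).

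**Figure D2:**
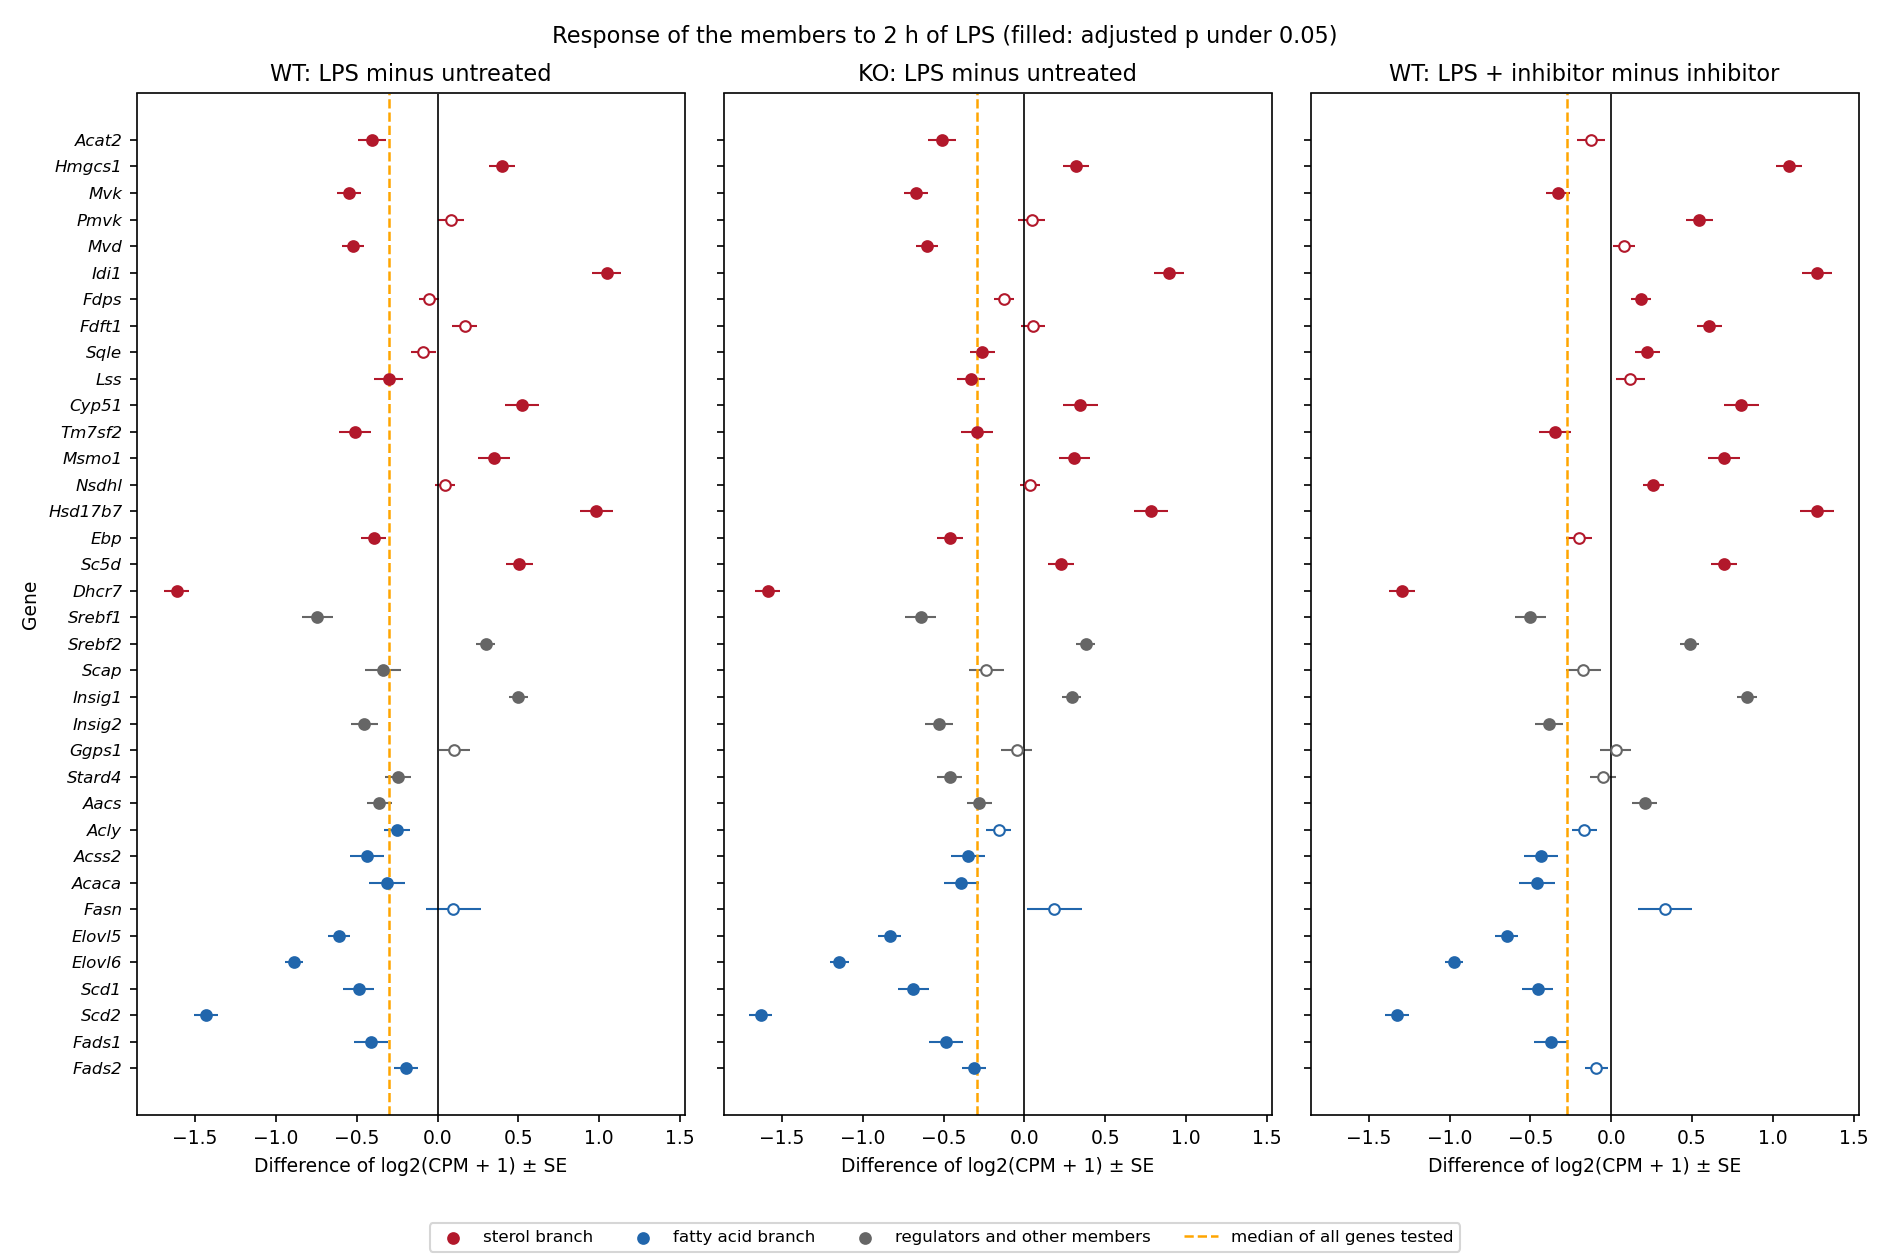
Log2 change of each gene with LPS in WT cells, in KO cells and in WT cells given the inhibitor. Points are fitted differences of log2(CPM + 1) with 1 SE, from 2 libraries per group. Filled points passed the test and the dashed line is the median of all genes tested (-0.30, -0.29 and -0.27). Idi1 and Hsd17b7 lie farthest to the right, and Dhcr7 and Scd2 farthest to the left, in all 3 panels. Rescaling by the median of ratios moves all points by about the distance of the dashed line from 0. Acly, Fads2, Stard4, Fdps and Sqle in WT cells then move from below to above 0.

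In KO cells LPS raised Idi1 and Hsd17b7 and lowered Dhcr7 and Scd2. Of the sterol enzymes 6 of 18 rose and 8 fell, and of the fatty acid genes 0 of 10 rose and 8 fell, against 13.9% and 52.7% of all genes tested. Rescaled, the counts were 9 and 4 in the sterol branch and 1 and 4 in the fatty acid branch, against 26.7% and 33.1%. Idi1 went from 88.0 and 99.9 to 178 and 172 CPM, Hsd17b7 from 33.3 and 36.9 to 59.2 and 63.0 CPM, Cyp51 from 117 and 103 to 149 and 131 CPM, and Hmgcs1 from 86.0 and 79.6 to 106 and 101 CPM. Dhcr7 went from 54.2 and 56.3 to 17.6 and 17.8 CPM, Mvk from 20.5 and 21.4 to 12.6 and 13.0 CPM, Mvd from 43.3 and 46.6 to 29.2 and 29.5 CPM, and the thiolase Acat2 from 31.0 and 28.6 to 21.4 and 19.9 CPM. None of these 8 genes, picked as called members with the largest changes, overlapped between untreated and LPS-treated KO libraries. The same holds for the fatty acid genes with the largest falls: Scd2 went from 1087 and 1011 to 351 and 325 CPM, Elovl6 from 54.7 and 52.9 to 23.4 and 24.1 CPM, Elovl5 from 122 and 112 to 69.3 and 61.2 CPM, and Scd1 from 101 and 84.8 to 61.4 and 53.1 CPM. Srebf1 went from 173 and 172 to 122 and 100.3 CPM, Srebf2 from 257 and 272 to 357 and 333 CPM, Insig1 from 82.2 and 77.5 to 99.3 and 96.6 CPM, and Insig2 from 20.4 and 21.5 to 13.1 and 15.3 CPM. The block added Fdps, Scap and Acly to the genes called lower in KO cells (adjusted p = 0.0175, 0.000469 and 0.0109) and Fasn to those called higher (adjusted p = 0.0132), where 62.2% of all genes were lower and 18.3% higher.

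The comparisons in WT and KO cells share no library. In both, the same 8 members rose (Cyp51, Hmgcs1, Hsd17b7, Idi1, Msmo1, Sc5d, Insig1 and Srebf2) and the same 19 fell, and 0 members were called in opposite directions. Of all genes tested 12% rose in both genotypes and 49.0% fell in both. The 19 of 36 members that fell is near that background, and the 8 of 36 that rose is above it. Among the 18 sterol enzymes 6 rose and 7 fell in both, and among the 10 fatty acid genes 0 rose and 8 fell. These counts were not tested, and no share of all genes was taken for opposite calls. The test of the difference between the responses called 0 of 36 members, against 0.413% of all genes tested. An unadjusted p under 0.05 was found for 4 members (Sc5d, Insig1, Elovl5 and Elovl6) and for 674 of all 10899 genes tested. The tests on recovered reads with edgeR and DESeq2 also called 0 members. The smallest adjusted p was 0.403, for Elovl6, whose response was lower in KO cells by 0.26 on the log2 scale (95% interval -0.43 to -0.08). For Hmgcs1 the difference was -0.08 (-0.34 to 0.18), for Idi1 -0.15 (-0.44 to 0.14) and for Scd2 -0.20 (-0.43 to 0.04). Intervals of this width do not show that the responses were equal.

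Sterol synthesis genes were lower in KO than in WT cells before any treatment. Hmgcs1 was at 142 and 135 CPM in untreated WT and at 86.0 and 79.6 CPM in untreated KO libraries, 0.60 of the WT level. Of 18 sterol enzymes 15 were lower and 0 higher, against 5.37% and 4.31% of all genes tested, and the median log2 change was -0.42 for the sterol branch and -0.01 for all genes. Only Pmvk, Ebp and Sc5d in the sterol branch missed the test, with estimates of -0.27, -0.02 and -0.17, and Pmvk was called with the replicate block (adjusted p = 0.00979). Of 10 fatty acid genes 2 were lower, Acss2 and Elovl6, and 0 higher, with a median of -0.14. With the replicate block 5 fatty acid genes were lower, Acly, Fads1 and Fads2 being added, and 13.7% of all genes were. The block also called Stard4 lower (adjusted p = 0.00805).

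Hmgcs1 had the largest change (log2 change -0.74, SE 0.082, adjusted p = 0.000462). The sterol dehydrogenase Nsdhl was at 44.2 and 45.3 CPM in WT and at 29.1 and 27.0 CPM in KO libraries (log2 change -0.66, SE 0.063, adjusted p = 0.000194). Tm7sf2 was at 4.67 and 4.15 CPM in WT and at 2.41 and 2.51 CPM in KO libraries, and Msmo1 at 118 and 119 CPM in WT and at 80.0 and 74.1 CPM in KO libraries. For these 4 genes no KO library reached a WT library. In the fatty acid branch, Acss2 was at 14.2 and 14.3 CPM in WT and at 10.1 and 8.81 CPM in KO libraries (log2 change -0.55, adjusted p = 0.00926), and Elovl6 at 63.4 and 62.6 CPM in WT and at 54.7 and 52.9 CPM in KO libraries (log2 change -0.23, adjusted p = 0.0337). Aacs, which activates acetoacetate, was at 70.7 and 61.4 CPM in WT and at 49.0 and 48.8 CPM in KO libraries (log2 change -0.42, adjusted p = 0.00816). The machinery itself moved less. Srebf1 was at 180 and 163 CPM in WT and at 173 and 172 CPM in KO libraries, which overlapped. Srebf2 was at 311 and 303 CPM in WT and at 257 and 272 CPM in KO libraries, a log2 change of -0.22 near the threshold (adjusted p = 0.0463, and 0.0705 after rescaling). Insig1 was at 98.4 and 96.5 CPM in WT and at 82.2 and 77.5 CPM in KO libraries (log2 change -0.29, adjusted p = 0.0165), and Insig2 overlapped, at 19.8 and 21.3 CPM in WT and 20.4 and 21.5 CPM in KO libraries.

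No share of all genes called was taken for fits that left out a library. A lower count of members in such fits thus cannot be told apart from a general loss of calls. The count of 20 members lower in untreated KO cells depended on having both libraries of each group. It was 8 without WT untreated replicate 1, 7 without WT untreated replicate 2, 10 without KO untreated replicate 1 and 9 without KO untreated replicate 2. Fdft1, Hmgcs1, Msmo1, Nsdhl and Tm7sf2 passed whichever of the 4 was left out. The count of fatty acid genes was then 0 or 1. The share of counted alignments that fell in genes also differed between the genotypes, at 58.95 to 59.86% in the 4 KO libraries and 61.51 to 64.06% in the 8 WT libraries, and that of alignments without a unique position was 33.23 to 34.92% and 28.59 to 32.1%. Their part in the result was not tested.

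**Figure D3:**
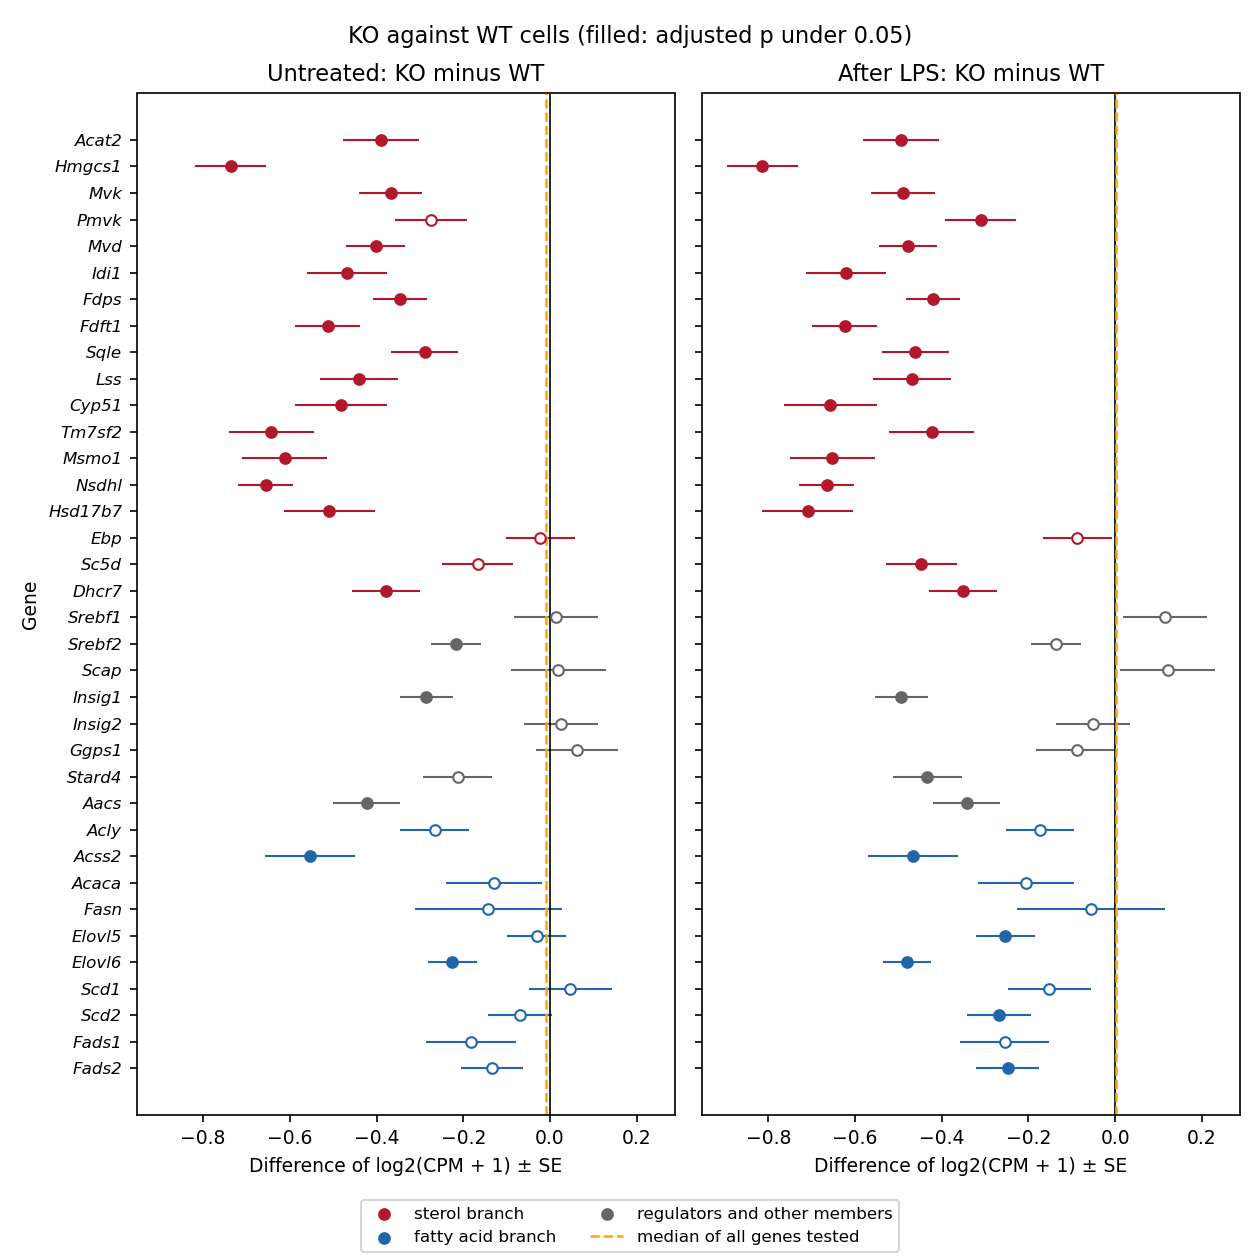
Difference between KO and WT cells for each gene, untreated (left) and after LPS (right). Points are fitted differences of log2(CPM + 1) with 1 SE, from 2 libraries per group, and filled points passed the test. The sterol genes lie left of 0 in both panels, and Ebp is the sterol gene nearest to 0 in each.

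After LPS the sterol branch was lower in KO cells again, in libraries that the untreated comparison did not use. Both comparisons set KO against WT cells in 1 fit over all 12 libraries, and replicate differences correlated between groups. The comparison after LPS is thus no independent repeat. Another difference between the KO and WT cells cannot be told apart from the loss of Parp14. All sterol enzymes except Ebp were lower, 17 of 18, with 0 higher, against 7.66% and 6.19% of all genes tested, and the median log2 change was -0.48 against 0.00 for all genes. Of the fatty acid genes 5 of 10 were lower (Elovl5, Elovl6, Scd2, Fads2 and Acss2) and 0 higher, with a median of -0.25. The block raised the fatty acid count to 8, adding Acly, Acaca and Fads1, where 16.7% of all genes were lower. It was 1 without WT LPS replicate 1 or KO LPS replicate 2, 2 without WT LPS replicate 2, 3 without KO LPS replicate 1, and 1 when only the groups compared were fitted. Fads2 was near the threshold (adjusted p = 0.0487) and missed it after rescaling (0.0709) and in edgeR (0.0574). Hmgcs1 was at 191 and 175 CPM in WT and at 106 and 101 CPM in KO libraries after LPS (log2 change -0.81, SE 0.082, adjusted p = 0.000195). Hsd17b7 was at 100.1 and 100.9 CPM in WT and at 59.2 and 63.0 CPM in KO libraries (log2 change -0.71, SE 0.11, adjusted p = 0.00173). Nsdhl was at 45.5 and 46.8 CPM in WT and at 29.2 and 28.3 CPM in KO libraries, and Cyp51 at 238 and 205 CPM in WT and at 149 and 131 CPM in KO libraries. Every KO library was below both WT libraries for these 4 genes.

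In the fatty acid branch after LPS, Elovl6 was at 34.3 and 32.8 CPM in WT and at 23.4 and 24.1 CPM in KO libraries (log2 change -0.48, SE 0.056, adjusted p = 0.000451). Acss2 was at 10.8 and 9.78 CPM in WT and at 7.60 and 6.77 CPM in KO libraries, Scd2 at 416 and 397 CPM in WT and 351 and 325 CPM in KO libraries, and Elovl5 at 79.1 and 76.6 CPM in WT and 69.3 and 61.2 CPM in KO libraries. These groups did not overlap, and the changes in Scd2 and Elovl5 (-0.27 and -0.25) were small. Insig1 was at 142 and 135 CPM in WT and at 99.3 and 96.6 CPM in KO libraries (log2 change -0.49, SE 0.061, adjusted p = 0.000621), and the sterol carrier Stard4 at 50.2 and 49.1 CPM in WT and 37.5 and 35.6 CPM in KO libraries (log2 change -0.43, adjusted p = 0.00594). Srebf1, Srebf2, Scap and Insig2 did not pass, with log2 changes of 0.12, -0.14, 0.12 and -0.05, and Srebf2 was called lower with the replicate block (adjusted p = 0.038). In both states 19 of the 36 members were lower in KO cells: 15 sterol enzymes, Acss2, Elovl6, Aacs and Insig1. Of all genes tested 3.86% were lower in both. Leaving out KO LPS replicate 2 lowered the count of members after LPS from 25 to 16, and leaving out any other library of this comparison gave 17 to 19.

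No change in the set was detected with the Jak inhibitor on its own. The test called 0 of 36 members and 0.0% of all genes tested, 0 members had an unadjusted p under 0.05 where 111 of all genes did, and the tests on recovered reads called 0 genes (edgeR) and 2 genes (DESeq2). Hmgcs1 was at 142 and 135 CPM untreated and at 139 and 124 CPM with the inhibitor (95% interval of the log2 difference -0.26 to 0.11). Srebf1 was at 161 and 156 CPM, Srebf2 at 288 and 288 CPM, Insig1 at 99.2 and 104 CPM and Insig2 at 20.8 and 20.6 CPM with the inhibitor alone. The median log2 change was -0.02 in the sterol branch and -0.02 in the fatty acid branch.

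A few members were higher when the inhibitor was given with LPS than with LPS alone. Of the 8 genes higher among all 10899 tested, 5 were members: Hmgcs1, Mvd, Fdft1, Insig1 and Aacs. That is 3 of 18 sterol enzymes and 0 of 10 fatty acid genes, against 0.0734% of all genes tested, with 0 members lower (1.04% of all genes). Hmgcs1 was at 191 and 175 CPM with LPS and at 298 and 268 CPM with LPS and inhibitor (log2 change 0.63, SE 0.082, adjusted p = 0.00434). Mvd was at 39.6 and 42.9 CPM with LPS and at 59.8 and 58.9 CPM with both (log2 change 0.52, SE 0.067, adjusted p = 0.00428). The squalene synthase Fdft1 was at 58.3 and 61.8 CPM with LPS and at 79.8 and 85.1 CPM with both (log2 change 0.45, SE 0.075, adjusted p = 0.0181). The libraries given both agents were above both LPS libraries in each case. Aacs was at 50.7 and 51.6 CPM with LPS and at 71.6 and 73.7 CPM with both (log2 change 0.50, adjusted p = 0.0122), and Insig1 at 142 and 135 CPM with LPS and at 189 and 176 CPM with both (log2 change 0.40, adjusted p = 0.0107). These groups did not overlap either.

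The rest of the sterol branch had estimates on the same side. In all 17 of 18 sterol estimates and 6 of 10 fatty acid estimates were above 0, with medians of 0.28 and 0.01 against 0.02 for all genes. With the replicate block 16 members were higher, 13 sterol enzymes and 3 others, with 0 fatty acid genes, where 1.68% of all genes were higher. Without the block the count fell from 5 to 3 when LPS replicate 1 or LPS with inhibitor replicate 2 was left out, and to 1 when LPS replicate 2 or LPS with inhibitor replicate 1 was left out. Mvd passed without any 1 of these libraries, while Fdft1 and Aacs lost the call whichever was left out. Both SREBP genes were near their level with LPS alone. Srebf1 was at 107 and 96.9 CPM with LPS and at 117 and 106 CPM with both, Srebf2 at 371 and 386 CPM and then 400.4 and 407 CPM, and Insig2 at 14.3 and 15.2 CPM and then 15.3 and 16.0 CPM. None of these 3 passed, at log2 changes of 0.13, 0.09 and 0.08.

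**Figure D4:**
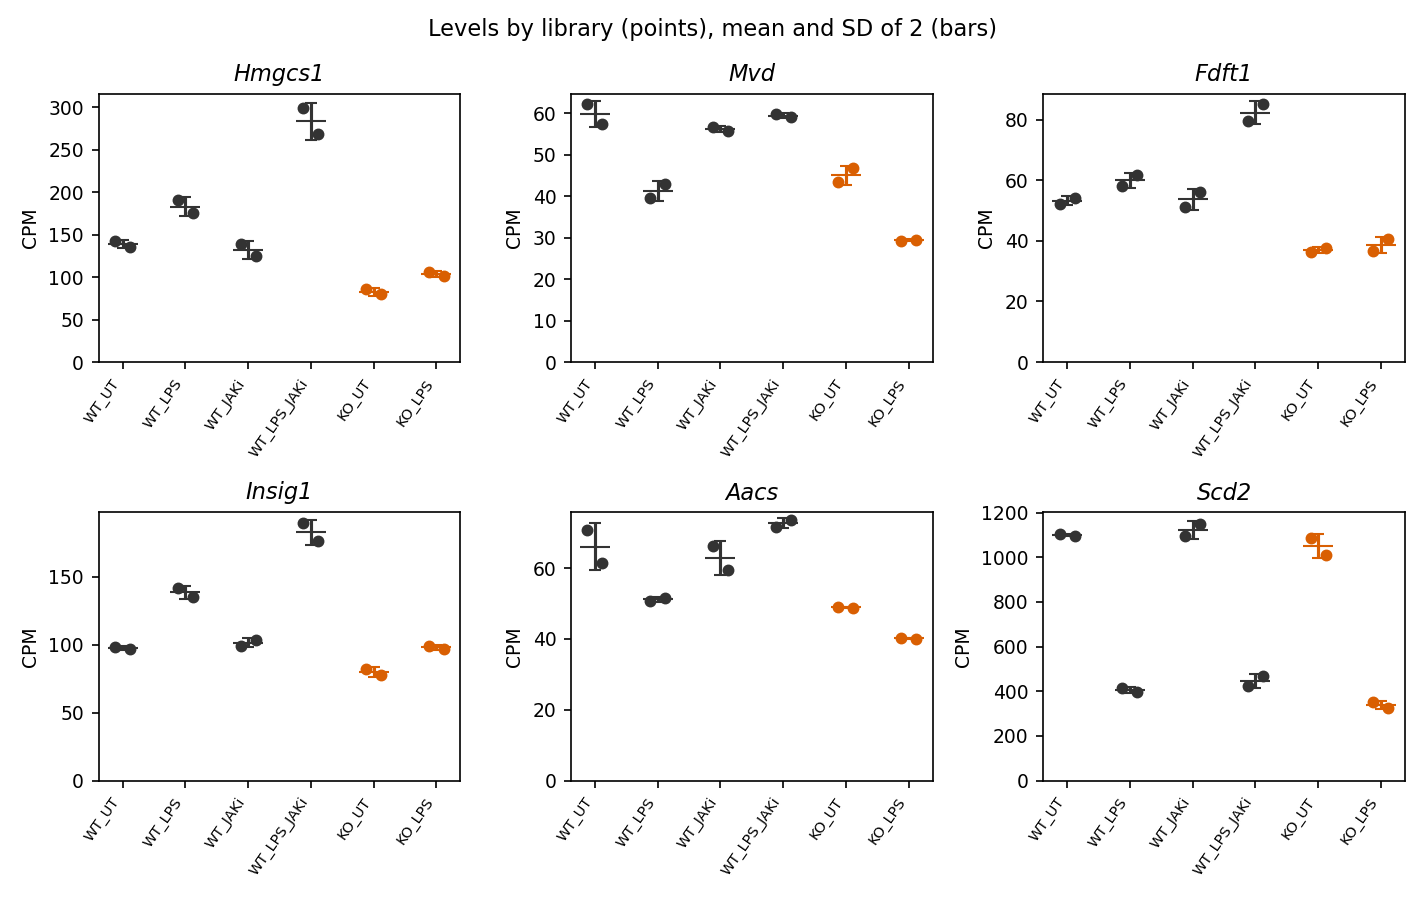
CPM of 6 genes in each library (points) with the mean and SD of the 2 libraries of a group (bars), WT groups in black and KO groups in orange. Hmgcs1, Fdft1 and Insig1 are highest with LPS and inhibitor together, where Hmgcs1 reached 268 and 298 CPM. The desaturase Scd2 is low in all 3 groups given LPS, with and without the inhibitor.

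With the inhibitor present, LPS raised Hsd17b7, Idi1 and Hmgcs1 more than 2-fold. Under the inhibitor 11 of 18 sterol enzymes rose and 3 fell (Mvk, Tm7sf2 and Dhcr7), and 0 of 10 fatty acid genes rose and 7 fell, against 13.5% and 50.8% of all genes tested. Rescaled, the counts were 13 and 1 in the sterol branch and 1 and 3 in the fatty acid branch, against 26.4% and 32.5%. With the replicate block 12 sterol enzymes rose and 4 fell, and 1 fatty acid gene rose and 9 fell, against 18.4% and 59.7%. Hsd17b7 went from 45.0 and 55.4 to 117 and 127 CPM, Idi1 from 129 and 138 to 338 and 310.0 CPM, Hmgcs1 from 139 and 124 to 298 and 268 CPM and Cyp51 from 166 and 151 to 296 and 259 CPM. These 4 genes were 1.75-fold to 2.42-fold higher, with no overlap. Insig1 went from 99.2 and 104 to 189 and 176 CPM (log2 change 0.84, SE 0.061, adjusted p = 1.74e-06). Mvk went from 25.9 and 24.4 to 20.8 and 18.9 CPM, Tm7sf2 from 3.84 and 3.46 to 2.68 and 2.61 CPM, and Dhcr7 from 67.1 and 68.5 to 25.1 and 29.2 CPM. The falls of the fatty acid branch were near those without inhibitor. Scd2 went from 1093 and 1149 to 425 and 470 CPM, Elovl6 from 64.2 and 64.6 to 32.2 and 32.5 CPM, Elovl5 from 120.0 and 121 to 76.7 and 76.8 CPM, and acetyl-CoA carboxylase Acaca from 193 and 212 to 130.2 and 165 CPM. None of these 7 genes overlapped between the groups, which adds no support because they were picked by their calls.

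The test of the difference between the responses to LPS with and without inhibitor called 2 members, Hmgcs1 and Mvd, and these were the 2 genes called higher among all tested (0.0184%). Hmgcs1 rose with LPS by 0.40 without and by 1.10 with the inhibitor, a difference of 0.70 (SE 0.12, adjusted p = 0.0342). Mvd fell by 0.52 without the inhibitor and was at 56.7 and 55.6 CPM before and 59.8 and 58.9 CPM after LPS with it, a difference of 0.60 (SE 0.095, adjusted p = 0.026). For Aacs the difference was 0.57 (adjusted p = 0.0693): it fell with LPS alone and rose with LPS under the inhibitor, from 66.3 and 59.3 to 71.6 and 73.7 CPM. The fall of Aacs with LPS alone depended on the scaling. Rescaled by the median of ratios it was -0.08 and missed the test (adjusted p = 0.395, limma). The difference for Scd2 was 0.11 (95% interval -0.13 to 0.34) and for Dhcr7 0.32 (0.07 to 0.57, adjusted p = 0.544). The replicate block called 10 members higher, where 1.22% of all genes were. These calls rest on all 8 libraries: Hmgcs1 kept its call in the fits without WT inhibitor replicate 1 or WT LPS with inhibitor replicate 2, and Mvd lost its call without any 1 of the 8 (adjusted p = 0.0514 to 0.172). The comparisons of the inhibitor and of the KO cells after LPS share the 2 WT LPS libraries, so their values are only placed side by side here. They were 0.63 and -0.81 for Hmgcs1, 0.52 and -0.48 for Mvd, 0.45 and -0.62 for Fdft1, 0.40 and -0.49 for Insig1, and 0.50 and -0.34 for Aacs.

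The 2 branches were also summed in each of the 6 groups. Summed over the 18 sterol enzymes, expression was 1590 and 1591 CPM in untreated WT libraries, 1854 and 1774 CPM after LPS, 1577 and 1568 CPM with the inhibitor alone, 2349 and 2220 CPM after LPS with inhibitor, 1194 and 1168 CPM in untreated KO and 1239 and 1210 CPM in LPS-treated KO libraries. Over the 10 fatty acid genes the sums were 3409 and 3460 CPM, 2305 and 2621 CPM, 3219 and 3505 CPM, 2371 and 2762 CPM, 3095 and 3193 CPM, and 2080 and 2285 CPM in the same order. Libraries of KO cells had the lowest sterol sums and those with LPS and inhibitor the highest, whereas every library given LPS had a lower fatty acid sum than every library without it. Sums are led by the most abundant genes (Fdps, Fasn and Scd2 among them), so the medians over genes are given too. The sterol median minus the fatty acid median was 0.42 for LPS in WT, 0.39 for LPS in KO, 0.69 for LPS under the inhibitor, -0.28 for untreated KO against WT, -0.23 for KO against WT after LPS, and 0.27 for the inhibitor with LPS. It was 0.00 for the inhibitor alone and 0.02 for the difference of the LPS responses between genotypes. Without WT LPS with inhibitor replicate 1 the inhibitor value was 0.16. These differences describe the listed genes and have no test.

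**Figure D5:**
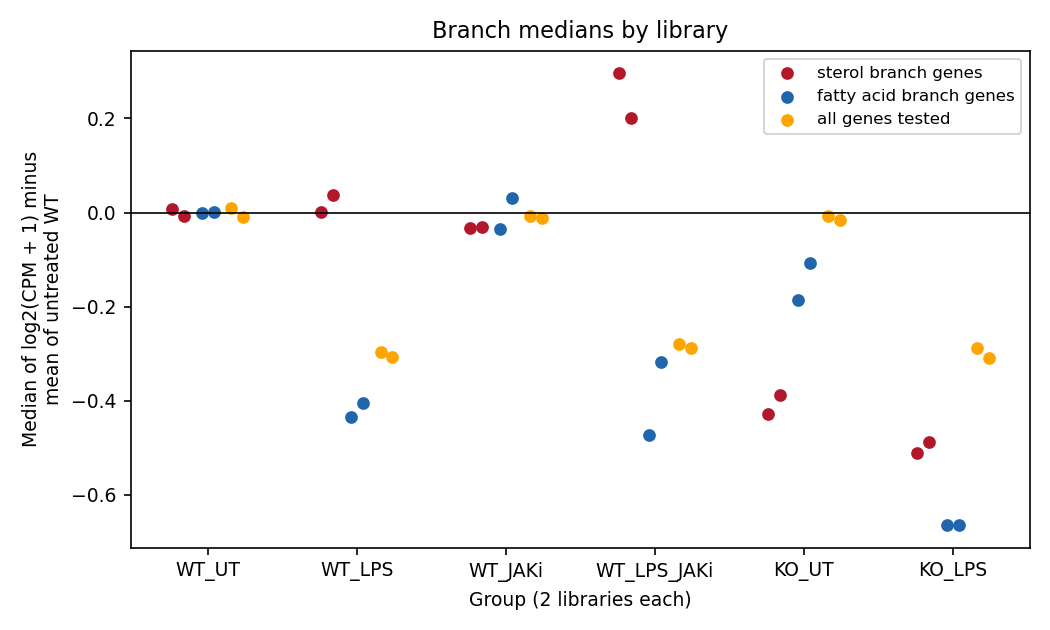
Median over the genes of each branch, in each library, of log2(CPM + 1) minus the mean of the untreated WT libraries, with the median of all genes tested in orange. Sterol medians are 0.20 and 0.30 with LPS and inhibitor, 0.00 and 0.04 with LPS alone, and -0.39 to -0.51 in the 4 KO libraries. Fatty acid medians are between -0.32 and -0.67 in the 6 LPS-treated libraries. The LPS-treated libraries also share a shift of all genes of about -0.30.

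Pathway genes outside the set were read from further lists. Of 12 tested genes of SREBP processing and turnover, 2 rose and 6 fell with LPS in WT cells and in KO cells, near the share of all genes (13.7% and 53.6% in WT), with the ER lipid raft proteins Erlin1 at -1.04 and Erlin2 at -0.62 and the site-cutting protease gene Mbtps1 at -0.46 in WT. Between KO and WT cells 0 of the 12 were called in either state, where 5.37% of all genes were lower and 4.31% higher in untreated and 7.66% and 6.19% in LPS-treated cells. Of 14 further sterol pathway genes, 1 rose and 9 fell with LPS in WT cells, also near the share of all genes. Por, the reductase that passes electrons to Cyp51, was at 112 and 135 CPM in untreated and at 186 and 244 CPM in LPS-treated WT libraries (log2 change 0.79, adjusted p = 0.00514). The sterol reductase gene Lbr fell by 0.69 and the farnesyltransferase subunit gene Fntb by 0.60. In untreated KO cells 1 gene of this list was lower than in WT (Hsd17b10, -0.28), and 0 were called after LPS. Of 17 tested further fatty acid pathway genes, 3 rose and 8 fell with LPS in WT cells, again near that share, with the phosphatidate phosphatase Lpin1 at -1.44, the mitochondrial Oxsm at -0.98, the acyltransferase Gpam at -0.85 and the mitochondrial Mcat at -0.74. In this list 1 gene was higher (Hacd3, 0.33) and 1 lower (Acsl3, -0.26) in untreated KO cells, and 0 were called after LPS. With the inhibitor and LPS, 0 genes of these 3 lists were called.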

How the data were processed

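Gene expression was measured by mRNA-seq of total RNA from RAW 264.7 cells (Maxwell extraction, TruSeq libraries, per the labels' protocols). The submitters' processing notes name TopHat2 2.1.0, HTSeq, edgeR and the builds mm10 and GRCm38. The deposited table holds CPM (counts per 1000000), made by the authors from all counted alignments, 5 summary lines included. Whole reads were recovered from the CPM steps for 100% of values in each library, to within 0.02 reads. CPM were then recomputed over gene reads alone (35.9 to 45.7 M per library). The 4 sample columns that the labels do not name were not used.

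The main test was limma 3.58.1 with a trend (R 4.3.3) on log2(CPM + 1). It fitted 6 group means over 12 libraries, for the 10899 genes that reached 1 CPM in 2 or more libraries. P-values were adjusted by Benjamini-Hochberg over all of them, with a threshold of 0.05. Fold changes on this scale understate those of low genes. The fit was run on simulated counts that had no replicate effect and no shift of all genes, so that run does not cover these features of the data. With 2 libraries per group, a difference between single values cannot pass an exact permutation test, so these p-values rest on spread pooled over genes and groups. The alternatives changed the pseudocount to 0.25, dropped the filter or raised it to 5 CPM, rescaled libraries by the median of ratios, kept the deposited scaling, added a replicate block, fitted the compared groups alone, left out each library, or used edgeR 4.0.16 or DESeq2 1.42.0 on recovered reads. Rescaling together with the block was added after seeing the data. The replicate numbers in the labels were checked as a pairing: the differences between replicates 1 and 2 correlated across genes in all 15 pairs of groups (r = 0.468 to 0.737), so values with the block are given beside counts and named genes whose call they change. The labels do not say what a number shares.

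The members and the other gene lists were chosen with earlier results of these data known. Every member may be named. Values per library are printed for the called members with the largest change (up to 4 per branch and direction, and 2 among regulators and others), for both SREBP and both Insig genes, and for up to 4 called genes of each further list, with Ch25h in each comparison. Where genes were picked by their calls, groups that do not overlap give no separate support. The share of all genes whose groups do not overlap was not taken. Exon lengths and overlaps came from GENCODE M21 and promoters from RefSeq (GRCm38.p6). Some genes are not reported here.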

Additional observations from a re-analysis of the deposited data

Results flagged for a closer look

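The response to LPS differed with the Jak inhibitor in 2 members, by the limma test of the difference itself. For Hmgcs1 the response with inhibitor minus that without was 0.701 on the log2 scale (SE 0.12, adjusted p = 0.0342), and for Mvd it was 0.604 (SE 0.095, adjusted p = 0.026). Both libraries with LPS and inhibitor were above both libraries with LPS alone for each gene. Without the inhibitor Hmgcs1 rose and Mvd fell with LPS. Leaving out single libraries gave 0.621 to 0.781 for Hmgcs1, called in 2 of 8 fits, and 0.547 to 0.661 for Mvd, called in 0 of 8.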

How the results depend on the processing

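When a library is left out, the lone sample of its group is assumed to vary like the other groups. For these fits, and for those of only the groups compared, no share of all genes called was taken. Leaving out each library in turn gave 22 to 28 members for LPS in WT cells, 22 to 25 for LPS in KO cells, 7 to 10 for untreated KO against WT, 16 to 19 for KO against WT after LPS, 1 to 3 for the inhibitor with LPS, 23 to 25 for LPS under the inhibitor, and 0 to 1 for the difference of LPS responses by inhibitor. The sterol minus fatty acid median then ranged from 0.417 to 0.443, 0.35 to 0.442, -0.301 to -0.235, -0.343 to -0.247, 0.155 to 0.359, 0.545 to 0.782 and 0.141 to 0.32 in the same order. For the difference of LPS responses by genotype it ranged from -0.052 to 0.077 and changed sign without WT untreated replicate 1 (-0.012), WT LPS replicate 2 (-0.049), KO untreated replicate 2 (-0.032) or KO LPS replicate 1 (-0.052). For the inhibitor alone it ranged from -0.06 to 0.004 and changed sign without WT untreated replicate 1 (-0.006) or 2 (-0.031) or WT inhibitor replicate 1 (-0.06).

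For LPS in WT cells that median difference was 0.420, and 0.434 with a pseudocount of 0.25, 0.468 with a filter of 5 CPM, 0.408 in the deposited scaling, 0.437 in edgeR and 0.436 in DESeq2. In KO cells it was 0.391, and 0.392, 0.472, 0.389, 0.393 and 0.394 in the same order, with 0.387 after rescaling by the median of ratios, with or without the block. The replicate block called 16 members higher with the inhibitor and LPS, and 15 when rescaled too, against 5. The fit of only the groups compared called 1. For the difference of LPS responses by inhibitor the counts were 10 with the block, 9 with the block and rescaling, 1 with no filter and 0 in only the groups compared, against 2. For the difference by genotype the block with rescaling called 1 member, against 0. The block moved the fatty acid genes lower in KO cells from 2 to 5 untreated and from 5 to 8 after LPS, and moved the count of all members called by less than 1.5 times in the other comparisons.

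After LPS in WT cells 5 genes called in the main fit changed sign. Fdps and Sqle, which the main fit did not call (-0.052 and -0.09), changed sign too. Rescaling by the median of ratios called both higher (0.235 and 0.197, adjusted p = 0.0119 and 0.037, limma). Under median of ratios (with or without block), edgeR and DESeq2, Acly was at 0.036, 0.060 and 0.086, Fads2 at 0.091 (called higher with the block, adjusted p = 0.0484), 0.114 and 0.140, and Stard4 at 0.040, 0.062 and 0.088. Lss was at 0.007 in edgeR and 0.033 in DESeq2, and Acaca at 0.024 in DESeq2. In KO cells Sqle was at 0.014, 0.029 and 0.054 under the same 3, Aacs at 0.008 in edgeR and 0.032 in DESeq2, and Fads2 at 0.006 in DESeq2. Fdps, not called there in the main fit, went from -0.128 to 0.149 on rescaling. These alternatives remove most of the downward shift of all genes. No called gene changed sign in the other comparisons under the alternatives run. The SE of a member's log2 change was 0.056 to 0.17, and 0.079 to 0.24 for differences of responses, which limits the size of change that can pass with these libraries.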

Other observations

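Genes that move and sense cholesterol outside the synthesis pathway were read as a further list, of which 13 of 15 could be tested. With LPS 1 rose and 8 fell in WT cells, near the share of all genes (13.7% rose and 53.6% fell). Abca1, which exports cholesterol, was at 58.3 and 52.5 CPM in untreated WT libraries and at 348 and 338 CPM after LPS (log2 change 2.61, adjusted p = 1.03e-08, limma), with no overlap. Its partner in export, Abcg1, fell by 2.94 on the log2 scale. The cholesteryl ester hydrolase Nceh1 fell by 1.25 and the sterol hydroxylase Cyp27a1 by 1.19. In KO cells after LPS Abca1 was at 282 and 247 CPM and Abcg1 fell by 2.96.

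In untreated KO cells 4 of these 13 genes were lower than in WT and 0 higher, where 5.37% of all genes were lower. The lysosomal lipase Lipa had a log2 change of -0.74 (adjusted p = 0.000689), Abca1 -0.69 (adjusted p = 0.000781), Nceh1 -0.62 (adjusted p = 0.00828) and the lysosomal cholesterol exporter Npc1 -0.36 (adjusted p = 0.00592). With the replicate block 8 were lower, where 13.7% of all genes were. After LPS 7 of 13 were lower in KO cells, where 7.66% of all genes were, among them Lipa at -0.92, Nceh1 at -0.51, Npc2 at -0.50 and the oxysterol receptor LXR alpha gene Nr1h3 at -0.40. The inhibitor with LPS called 0 of 13. Ch25h, which makes an oxysterol that holds back SREBP processing, was below the filter and was not tested. It had 1 and 0 reads in untreated WT libraries, 39 and 29 after LPS, 0 and 0 with the inhibitor alone, 31 and 15 with LPS and inhibitor, 0 and 0 in untreated KO and 12 and 10 in LPS-treated KO libraries.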
